A study of Arabidopsis thaliana with 50 samples.

Results

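The comparison described here sets apical leaf parts of the Arabidopsis thaliana double mutant pp2a-b'γζ (b'γζ) against apical leaf parts of the wild type Col-0 (WT). It covers 10 of the 50 libraries of the study, 5 of b'γζ and 5 of WT, and all 18231 genes of the authors' deposited table. Plants were 7 weeks old and grown in an 8 h light period, and each library came from a pool of 7 such parts of fully expanded rosette leaves. The b'γζ line lacks normal function of the genes B'γ and B'ζ. Values of 3 other lines against the same WT pools stand beside those of b'γζ: the single mutant pp2a-b'γ (b'γ), the double mutant pp2a-b'γ sid2 (b'γ sid2), and a complemented line. In the complemented line, written P35S:PP2A-B'γ, the viral 35S promoter drives B'γ in the b'γ background. All mutant lines therefore carry the b'γ mutation. Only in b'γ did the labels describe the apical parts as yellowing with cell death. Each mutant genotype was represented by 1 line, and the alleles were not named in the labels.

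Protein phosphatase 2A (PP2A) is assembled from a catalytic subunit, a scaffold subunit and an exchangeable regulatory subunit. The B' proteins are a family of such regulatory subunits and guide the enzyme to its substrates. In Arabidopsis, B'γ is known as a negative regulator of defence and of cell death in older leaves, and B'ζ is its close relative.

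The deposited values were log2 fold changes of group means, without values for single pools. All values given for genes and lists are log2 fold changes against WT unless named as a difference between mutant lines, and where 3 values of other lines stand together they are those of b'γ, b'γ sid2 and the complemented line, in that order. The limit for calling a gene higher or lower was a 2-fold difference, a log2 fold change of 1. The error of each fold change was bounded from the deposited p-values: the largest residual variance that the genotype and interaction p-values allow gave the largest standard error, and from it a two-sided contrast with 40 residual degrees of freedom and Benjamini-Hochberg adjustment over 25801 genes, called the largest-error test below. This rests on normal theory, because an exact permutation test needs values of single pools, which were not used here. The words "rose" and "fell" mark genes past the 2-fold limit that also passed this test at 0.05; other genes are given by value. The error is a ceiling only where residual variance is the same in all lines and both leaf parts, which was assumed and could not be checked. Under that ceiling a large difference can miss the test, and missing it does not show that lines were alike.

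Of the 18231 listed genes, 855 (4.69%) exceeded WT by 2-fold or more in b'γζ, and 533 (2.92%) lay below WT by as much. These 2 shares are the background for the list and family counts against WT below. The 214 genes that rose made up 1.17% and the 118 that fell 0.647%. The median of all listed genes was -0.01 on the log2 scale, and the middle 50% of values lay between -0.22 and 0.20. A difference of 4-fold was reached by 161 higher and 39 lower genes. With values centred on 5 reference genes, whose median was -0.10, the split was 284 against 77 in place of 214 against 118. All listed genes had a corrected genotype p under 0.05 over all lines, so the list itself was chosen by differences that include b'γζ and WT. This holds for the 5 reference genes too, the listed ones of 7 chosen, so their median is not a baseline shown to be stable.

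The 2 mutated genes were read first. The authors' deposited table gave B'ζ (AT3G21650, chromosome 3, 7621569 to 7624133 in RefSeq TAIR10.1) a log2 fold change of -2.59 in b'γζ. It had -0.40 in b'γ, -0.26 in complemented plants and -0.51 in b'γ sid2. B'ζ fell in b'γζ with a largest standard error of 0.13. Its differences from b'γ, b'γ sid2 and the complemented line, -2.2, -2.08 and -2.33 log2 units, passed the same test. B'γ (AT4G15415, chromosome 4, 8816922 to 8819783) had -0.46 in b'γζ, 0.35 in complemented plants, -0.72 in b'γ sid2 and -0.69 in b'γ. Its difference in b'γζ passed the test (largest standard error 0.06) but was under 2-fold. How much full-length transcript remained cannot be read from a gene total.

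The other listed regulatory subunits of the B' class stayed under 2-fold in b'γζ. B'α had 0.43 and lies in the chromosome 5 stretch described further on. The values of B'η, B'θ, B'κ, B'δ and B'ε lay between -0.24 and 0.05. In other lines, B'η had -3.28 in the complemented line against 0.05 in b'γζ, and B'ε had -1.31 in b'γ against -0.24 in b'γζ. The 7 listed genes for the scaffold and catalytic subunits, which the B' proteins join, ranged from -0.31 (PP2A-1) to 0.09 (PP2A-5), with a median of 0.02.

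**Figure D1:**
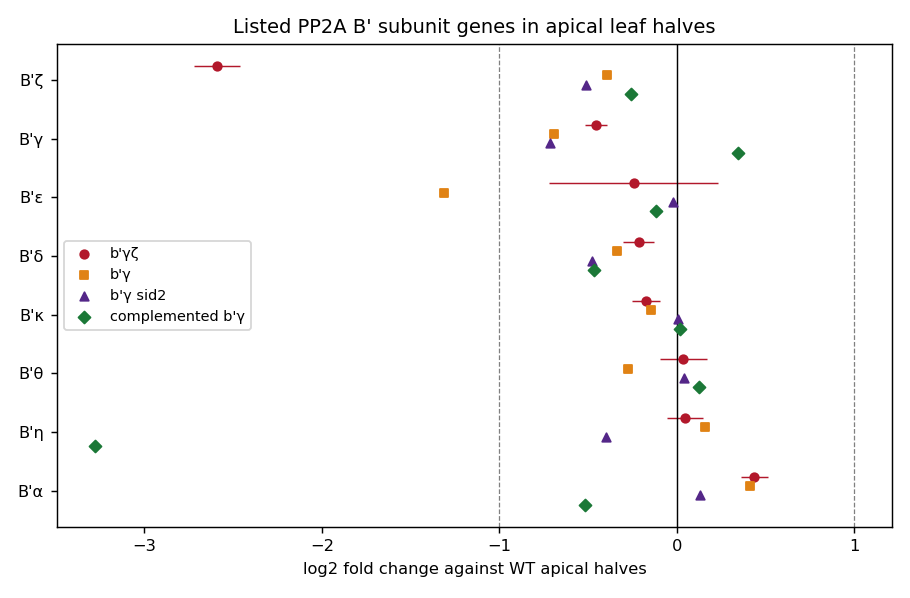
Log2 fold changes against WT (x axis) of the 8 listed B' subunit genes (rows) in apical parts of the 4 mutant lines; each point is 1 deposited value, and the bar on the b'γζ point is plus and minus its largest standard error. B'ζ lies at -2.59 in b'γζ and between -0.51 and -0.26 in the other lines; dashed lines mark 2-fold.

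Jasmonate is a lipid hormone made after wounding and attack. Its active form binds a receptor that removes JAZ repressors, which frees MYC factors; the MYC factors then switch on the JAZ genes themselves and the enzymes that break the hormone down. The G-box CACGTG is the sequence that MYC factors are known to bind. Upstream sequences of genes whose responses are described below are shown here because they hold such known elements. Each is the 250 bases before the RefSeq TAIR10.1 gene start, read 5′ to 3′ on the gene's strand, with the element named for that gene in capitals. The first pair, the repressor genes JAZ7 (chr2:14572780-14573029, plus strand) and JAZ2 (chr1:28150447-28150696, minus strand), each hold 1 G-box.
JAZ7: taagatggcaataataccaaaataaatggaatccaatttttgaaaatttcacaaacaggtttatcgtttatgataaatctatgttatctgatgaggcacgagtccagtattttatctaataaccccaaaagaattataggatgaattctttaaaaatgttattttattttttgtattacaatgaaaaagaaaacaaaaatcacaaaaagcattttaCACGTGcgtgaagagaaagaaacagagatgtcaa
JAZ2: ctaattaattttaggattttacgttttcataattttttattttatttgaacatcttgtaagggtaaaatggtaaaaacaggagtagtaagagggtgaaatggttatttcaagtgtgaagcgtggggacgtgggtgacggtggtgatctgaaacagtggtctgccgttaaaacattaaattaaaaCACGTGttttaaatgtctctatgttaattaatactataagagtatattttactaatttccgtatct
The second pair, JAZ5 (chr1:5957512-5957761, minus strand) and DDF1 (chr1:4291018-4291267, minus strand), hold CGCGT, the core of the element bound by calmodulin-binding CAMTA factors, here as overlapping matches on both strands.
JAZ5: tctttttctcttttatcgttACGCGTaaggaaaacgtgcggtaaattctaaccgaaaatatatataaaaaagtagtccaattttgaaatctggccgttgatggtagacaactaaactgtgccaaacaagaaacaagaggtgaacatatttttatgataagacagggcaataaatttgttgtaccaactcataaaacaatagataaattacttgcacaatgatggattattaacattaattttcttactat
DDF1: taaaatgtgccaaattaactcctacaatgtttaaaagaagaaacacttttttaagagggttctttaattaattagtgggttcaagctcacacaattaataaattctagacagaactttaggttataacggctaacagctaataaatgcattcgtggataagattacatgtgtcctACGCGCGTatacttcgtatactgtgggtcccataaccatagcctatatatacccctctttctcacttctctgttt
The heat factor gene HSFA2 (chr2:11135374-11135623, plus strand) holds 2 heat shock elements GAANNTTC, and a G-box left in lower case.
HSFA2: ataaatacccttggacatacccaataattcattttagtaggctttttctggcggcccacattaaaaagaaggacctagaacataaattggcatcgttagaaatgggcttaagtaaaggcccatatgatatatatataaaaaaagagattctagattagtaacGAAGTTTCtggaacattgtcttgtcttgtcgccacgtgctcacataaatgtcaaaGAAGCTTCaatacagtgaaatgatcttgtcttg
The clock genes PRR5 (chr5:8358547-8358796, minus strand) and BOA (chr5:24003638-24003887, plus strand) and the cold factor gene CBF3 (chr4:13019401-13019650, minus strand) each hold 1 evening element, searched as AAATATCT on both strands, and BOA also holds a G-box left in lower case.
PRR5: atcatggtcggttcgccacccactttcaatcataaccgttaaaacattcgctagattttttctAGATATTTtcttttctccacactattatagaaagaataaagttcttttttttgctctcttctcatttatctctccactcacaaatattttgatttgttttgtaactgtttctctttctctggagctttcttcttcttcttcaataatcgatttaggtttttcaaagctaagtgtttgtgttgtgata
BOA: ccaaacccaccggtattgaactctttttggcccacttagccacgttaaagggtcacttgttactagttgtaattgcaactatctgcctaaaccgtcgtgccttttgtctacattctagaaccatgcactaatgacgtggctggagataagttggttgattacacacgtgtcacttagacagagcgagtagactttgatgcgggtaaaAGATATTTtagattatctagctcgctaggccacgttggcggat
CBF3: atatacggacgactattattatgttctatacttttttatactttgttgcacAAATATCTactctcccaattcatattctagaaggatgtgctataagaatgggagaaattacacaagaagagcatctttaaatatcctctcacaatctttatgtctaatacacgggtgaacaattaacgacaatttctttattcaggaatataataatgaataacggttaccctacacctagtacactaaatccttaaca

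JAZ genes were mostly higher in b'γζ. Of 13 listed members, 9 were at least 2-fold higher and 0 lower, and the family median was 1.52 against -0.01 over all listed genes. JAZ7, JAZ5 and JAZ2 rose. In the authors' deposited table, JAZ7 had 4.23 in b'γζ, 2.48 in complemented plants, 1.74 in b'γ sid2 and 1.72 in b'γ. Its largest standard error was 0.88, and it was among the 10 highest values of all listed genes in b'γζ. JAZ5 had 3.06 in b'γζ (largest standard error 0.65), against 2.84, 2.52 and 2.36 in the other lines. JAZ2 had 1.52 in b'γζ (largest standard error 0.31), against 1.06, 1.15 and 1.23. JAZ8 at 3.95, JAZ13 at 3.69, JAZ10 at 2.94 and JAZ1 at 2.26 did not pass. JAZ12, JAZ4, JAZ3 and JAZ11 lay between -0.32 and 0.04. None of the 13 differed 2-fold between b'γζ and another mutant line with the largest-error test passed.

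Jasmonate inactivation had a list median of 1.70 in b'γζ, with 7 of 10 listed genes at least 2-fold higher. The list medians of the other lines were 2.35, 1.88 and 1.69. CYP94B3 and CYP94B1, which hydroxylate the active hormone, had 3.58 and 3.59 in b'γζ. CYP94C1, which oxidises it further, had 2.72. JOX4, a hydroxylase of jasmonic acid, had 3.67. Under the largest-error test with Benjamini-Hochberg adjustment 0 of the 7 passed, while all 7 passed at an unadjusted p of 0.05. ILL6, an amidohydrolase of the hormone's conjugate, had 1.33. JOX3 differed between lines: it had 0.90 in b'γζ, 1.39 in complemented plants, 3.08 in b'γ sid2 and 8.06 in b'γ, and its difference from b'γ of -7.17 passed the test.

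**Figure D2:**
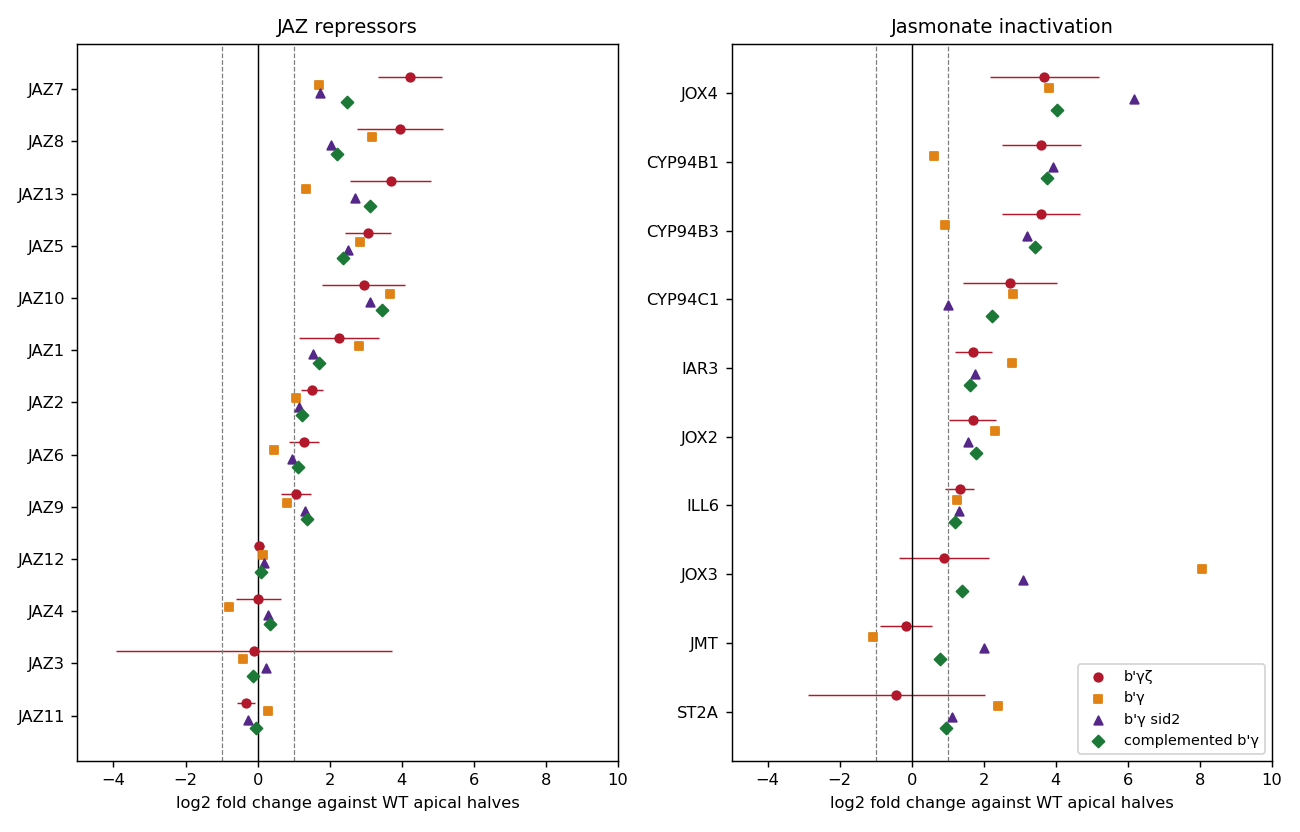
Log2 fold changes against WT (x axis) of the 13 listed JAZ genes (left) and the 10 listed jasmonate inactivation genes (right) in the 4 mutant lines, with the largest standard error as a bar on the b'γζ points. JAZ7 lies at 4.23 in b'γζ and between 1.72 and 2.48 in the other lines; JAZ12 lies near 0 in every line.

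In jasmonate synthesis 6 of 12 listed genes were at least 2-fold higher, with a median of 1.06. LOX3, a lipoxygenase of the first step, rose to 1.90 in b'γζ (largest standard error 0.53), against 1.04, 0.73 and 1.08 in b'γ, b'γ sid2 and the complemented line. OPR3, the reductase of the peroxisomal step, rose to 1.45 (largest standard error 0.32). LOX4 had 3.06 and AOC3, a cyclase, had 2.39, neither of which passed. LOX2 and AOS, the abundant leaf lipoxygenase and the allene oxide synthase, had 0.53 and 0.48.

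Downstream, the MYC2 branch had 6 of 12 members at least 2-fold higher and a median of 0.86. MYC2, its main activator, rose to 1.39 in b'γζ (largest standard error 0.25), and JAM1, a repressor that competes with MYC2, rose to 1.31 (largest standard error 0.18). NAC055, a factor downstream of MYC2, had 1.17. The storage protein genes VSP1 and VSP2 had 2.60 and 0.72 in b'γζ, against 6.80 and 3.09 in b'γ sid2. In the ERF1 and ORA59 branch 5 of 11 listed genes were at least 2-fold higher. THI2.1, a thionin gene, had 2.14. ERF2 rose to 1.19 (largest standard error 0.30). The defensin gene PDF1.2a had 4.05 in b'γζ, 2.13 in complemented plants, 8.74 in b'γ sid2 and 5.64 in b'γ, and missed the test. Its near-identical copies PDF1.2b and PDF1.2c had 0.00 and 2.42, and reads shared among the copies make each of these values uncertain. Over the 5 jasmonate lists, 33 of 58 listed genes were higher by 2-fold, 0 were lower, and 8 rose.

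Genes that respond within minutes to wounding, touch and other stress also held many higher members. Of 22 listed members of this group 14 were at least 2-fold higher and 1 lower, with a median of 1.28. Under the largest-error test with Benjamini-Hochberg adjustment only 1 of the 14 passed, and 5 of the 14 passed at the same limit without adjustment. ERF109, a factor of the early wound response, rose to 3.78 in b'γζ, against -0.03 in b'γ, 1.36 in complemented plants and 1.05 in b'γ sid2. Its largest standard error was 0.92, and its difference from b'γ of 3.81 passed the test. PHI-1 had 4.42, CML39, a calmodulin-like protein, had 3.27 and CML37 had 2.23, and none of the 3 passed. TCH2 and TCH3, named for their response to touch, had 1.01 and 1.25. TCH2 had -0.97 in b'γ, and the difference of 1.98 between b'γζ and b'γ passed the test. ERF104 was the lower member, at -1.20.

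Kinases of calcium and stress signalling came next. Of 19 listed calcium-dependent kinase genes, 5 were higher by 2-fold and 0 lower. CPK28, which restrains immune signalling, rose to 2.17 in b'γζ, against 0.79, 0.16 and 0.75 in b'γ, b'γ sid2 and the complemented line. CPK9 rose to 1.22 and CPK1 to 1.85, while CPK32 had 1.31, and CPK1 lies in the chromosome 5 stretch. Among the MAP kinase kinase kinase genes numbered 13 to 21, a group chosen after its values were seen, 4 of 7 listed members were at least 2-fold higher. MAPKKK21 rose to 3.40, MAPKKK17 to 2.67 and MAPKKK14 to 2.40. WRKY factors, many of which act in defence, had 13 of 56 listed members at least 2-fold higher and 0 lower. Under the largest-error test with Benjamini-Hochberg adjustment 0 of them passed, and 2 passed at an unadjusted p of 0.05. WRKY40 had 2.07, WRKY22 1.86, WRKY53 1.70 and WRKY71 1.58 in b'γζ, and WRKY71 had 5.97 in b'γ. The WRKY median was 0.22 in b'γζ, against 1.81, 0.00 and 0.14 in the other lines. Of 63 listed NAC factor genes, 9 (14.3%) were higher by 2-fold and 2 (3.17%) lower. NAC090 rose to 3.50, NAC061 and NAC036 had 2.95 and 1.88, and NAC2, in the chromosome 5 stretch, rose to 1.22. Of 76 listed MYB factor genes, 7 (9.21%) were at least 2-fold higher, and MYB95 rose to 2.22 in b'γζ, against -0.40 in b'γ. MYB24, MYB15 and MYB21 had 2.60, 2.04 and 1.53.

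Heat shock genes protect proteins from unfolding. Of 17 listed members, 6 were at least 2-fold higher, 1 was lower, and the median was 0.89. HSFA2, a heat stress factor, rose to 3.21 in b'γζ, against 0.34 in b'γ, 2.93 in complemented plants and 2.36 in b'γ sid2. Its largest standard error was 0.64, and its difference of 2.87 from b'γ passed the test. The chaperone genes HSP90.1, HSP101 and HSP70-4 rose to 1.5, 1.11 and 1.07, and the coactivator gene MBF1C rose to 1.13. HSFB1, another heat factor gene, had 1.23. The small heat shock protein genes HSP17.6A, HSP17.4 and HSP18.2 had 0.89, -0.56 and -1.43. HSP70-4 had -0.55 in b'γ, and the difference of 1.63 between b'γζ and b'γ passed the test. Another HSP70 gene, Hsp70-2 (AT5G02490), named after its values were seen, rose to 3.10 in b'γζ, against 3.03, 2.47 and 2.92 in the other lines.

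Immune receptors and danger signals had 6 of 17 members at least 2-fold higher and 0 lower, with a median of 0.36. PEPR1 and PEPR2, receptors of the plant elicitor peptides, rose to 1.62 and 1.48. ADR1-L2, a helper immune receptor, rose to 1.6, and it lies in the chromosome 5 stretch. Without that stretch 5 of the 17 were at least 2-fold higher. PROPEP3, a precursor of the peptides, had 2.31 in b'γζ against 5.74 in b'γ, and LYK5, a chitin receptor, had 1.58. RBOHD, the oxidase of the oxidative burst, had 1.15, and FLS2, the flagellin receptor, had 0.15. Of 38 listed cysteine-rich receptor-like kinase genes, 7 (18.4%) were at least 2-fold higher. Their family median was 0.69 in b'γζ, against 1.75, 0.46 and 0.56 in the other lines. In b'γζ, CRK14 and CRK10 both rose to 1.49, while CRK11 and CRK20 had 1.77 and 1.21. Among 70 listed genes described as TIR-type receptors, a group added after values were seen, 14 (20%) were at least 2-fold higher, 0 were lower and 7 rose. AT5G58120 rose to 2.03 and AT5G22690 to 1.63, against 0.16, -0.25 and 0.21 in b'γ, b'γ sid2 and the complemented line for AT5G22690. Such receptors form clusters of related copies, which makes single values uncertain.

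Salicylic acid is the hormone of systemic resistance to biotrophic pathogens, and ICS1, the gene mutated in sid2 plants, makes most of it under attack. Of 28 listed genes of this pathway 4 were at least 2-fold higher in b'γζ, 2 were lower, and the median was 0.18. GRX480, BSMT1, CBP60g and EDS1 were the higher ones, with 2.26, 1.04, 1.44 and 1.02. UGT74F2, which conjugates salicylic acid to glucose, fell to -1.31. ICS1 had 0.61 in b'γζ, 0.32 in complemented plants, -0.97 in b'γ sid2 and 3.18 in b'γ. PR1, the standard marker of the pathway, had 0.80 in b'γζ, -0.12 in complemented plants, -4.32 in b'γ sid2 and 8.43 in b'γ. The difference between b'γζ and b'γ was tested directly. With the test passed, 13 of the 28 genes were at least 2-fold lower in b'γζ than in b'γ. The share over all listed genes was 6.18%. Among the 13 were FMO1 with a difference of -8.19 and PR1 with -7.63. The list median was 2.77 in b'γ, and a high value in b'γ alone can give the genotype p that listing required.

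**Figure D3:**
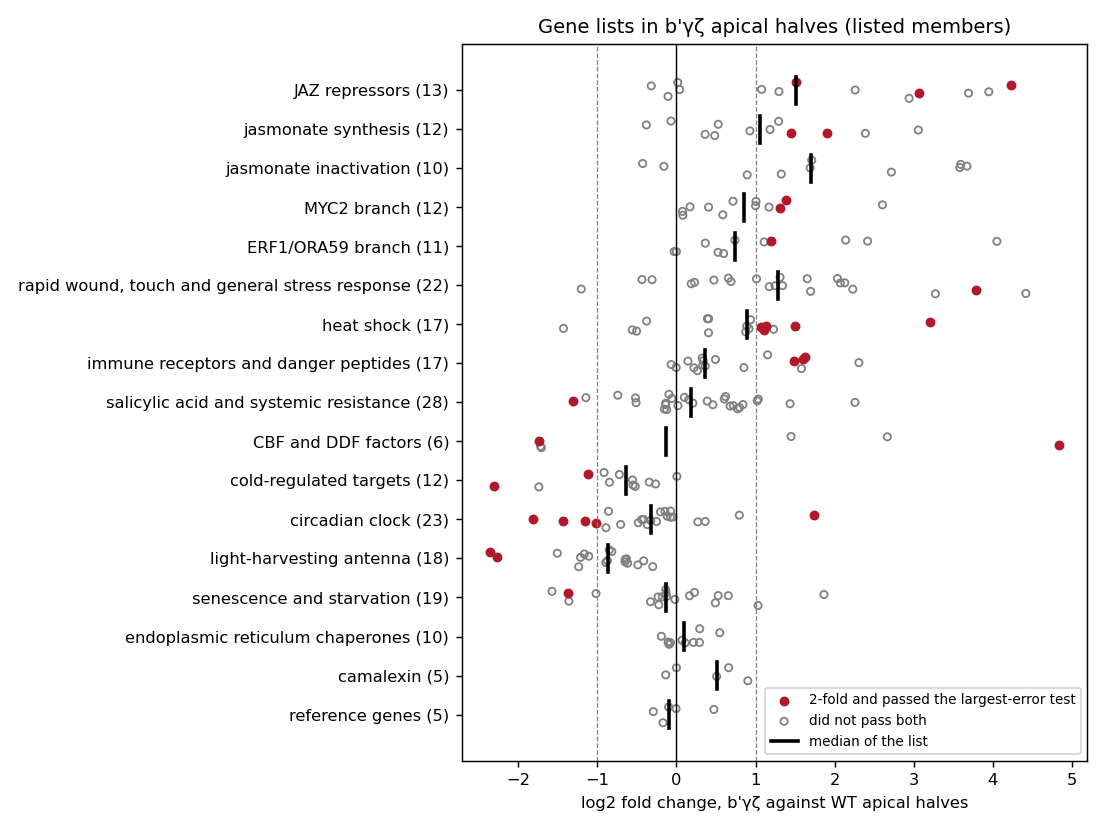
Log2 fold changes of b'γζ against WT (x axis) for listed members of 17 gene lists (rows, number of listed members in brackets); filled points passed both the 2-fold limit and the largest-error test, and black bars are list medians. The jasmonate lists have medians between 0.74 and 1.70, while the antenna list has -0.86 and the reference genes -0.10.

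Ageing genes and other groups were compared with b'γ in the same way. SAG12, a protease gene of late senescence, had -0.02 in b'γζ and 13.02 in b'γ, and the difference of -13.04 passed the test. Of 19 listed senescence and starvation genes, 2 exceeded WT by 2-fold in b'γζ and 4 lay below WT by 2-fold, and DIN10 fell to -1.37, while SAG29, DIN6 and DIN1 had -1.57, -1.36 and -1.02. Against b'γ, 11 of the 19 were lower in b'γζ with the 2-fold limit and the test passed. The 10 endoplasmic reticulum chaperone genes lay between -0.19 and 0.55 in b'γζ, and all 10 were lower than in b'γ by the same criteria. Camalexin genes lay between -0.14 and 0.90 in b'γζ, and all 5 were lower than in b'γ by the same criteria. Their list median was 5.78 in b'γ. Listing required a corrected genotype p under 0.05 over all lines, which a high value in b'γ alone can give. The values and counts of these groups against b'γ are therefore a description of listed genes. Over all listed genes, b'γζ exceeded b'γ by 2-fold with the test passed for 817 genes (4.48%) and was below it for 1127 (6.18%). The same counts were 124 (0.68%) and 67 (0.368%) against b'γ sid2, and 73 (0.4%) and 10 (0.0549%) against the complemented line.

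The CBF and DDF genes, sister factors that bind the same drought and cold element, lay on both sides of WT. DDF1 had 4.84 in b'γζ, 1.06 in complemented plants, 1.01 in b'γ sid2 and -0.29 in b'γ, and it was the third highest value of all listed genes. DDF1 rose (largest standard error 1.29), and its difference of 5.13 from b'γ passed the test. DDF2 had 2.67 and CBF4 1.45 in b'γζ, and neither passed. CBF1, CBF2 and CBF3, the tandem genes of the cold response on chromosome 4, had -1.72, -1.71 and -1.73 in b'γζ. CBF3 fell (largest standard error 0.21), while CBF1 and CBF2 did not pass. In b'γ sid2 the 3 tandem genes had -3.15, -3.39 and -3.09, and the difference of 1.36 between b'γζ and b'γ sid2 passed the test for CBF3. Of 12 listed cold-regulated targets of these factors, 0 were 2-fold higher and 3 lower. GOLS3, a galactinol synthase gene, fell to -2.30 and RD29A fell to -1.12, while RD29B had -1.74. COR15A, KIN1 and KIN2 had -0.56, -0.34 and -0.26 in b'γζ, against -3.89, -2.25 and -2.21 in b'γ. The median of the 12 targets was -0.64 in b'γζ, against -2.23, -1.58 and -0.99 in the other lines. By 2-fold with the test passed, 7 of the 12 were higher in b'γζ than in b'γ, where the share of all listed genes was 4.48%. The same held for 4 against b'γ sid2 and 0 against the complemented line, where the shares of all listed genes were 0.68% and 0.4%.

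Clock genes keep daily time through waves of repressors that follow each other from morning to evening. Of 23 listed clock genes 1 was at least 2-fold higher and 4 were lower in b'γζ, and all 5 passed the test. The median was -0.33. PRR5, a repressor of the afternoon, had -1.82 in b'γζ, -1.51 in complemented plants, -2.90 in b'γ sid2 and 0.42 in b'γ. It fell with a largest standard error of 0.12. PRR9, which peaks earlier, fell to -1.43 in b'γζ, against 0.11, -2.77 and -1.51 in the other lines. CCA1, a morning factor, fell to -1.16, and FKF1, a blue light receptor of the afternoon, fell to -1.02. BOA, a relative of the evening factor LUX, rose to 1.74 (largest standard error 0.13), against 0.62, 2.23 and 1.57. LUX had -0.07, TOC1 -0.08 and GI -0.20. LNK2, GRP8 and PRR7 passed the test at values under 2-fold, -0.89, -0.70 and -0.48.

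For PRR5 the difference of b'γζ was -2.24 from b'γ and 1.09 from b'γ sid2, and for PRR9 it was -1.53 and 1.34. All 4 differences passed the test, and the differences from the complemented line, -0.31 for PRR5 and 0.08 for PRR9, did not. RVE2, a clock-related MYB factor named after values were seen, rose to 2.01 in b'γζ, against 0.65, 3.24 and 1.48. Of 15 listed B-box factor genes, a group added after values were seen, 4 were at least 2-fold lower and 1 higher. LZF1 and BBX28 fell to -1.3 and -1.18, while BBX32 had 2.22 and did not pass. Harvest time was not given in the labels, and the part of harvest time in these clock values was not tested.

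The light-harvesting antenna carries the chlorophyll that collects light for the photosystems. Of its 18 listed genes 7 were at least 2-fold lower and 0 higher in b'γζ, with a median of -0.86. LHCB2.1 fell to -2.35 (largest standard error 0.39), against -1.81 in b'γ, -2.59 in complemented plants and -3.00 in b'γ sid2. LHCB2.2 fell to -2.27 (largest standard error 0.49), against -2.06, -2.64 and -2.48. LHCB2.3, the remaining member of this trio of near-identical genes, had -1.51 and did not pass. The LHCB1 genes ranged from -1.24 (LHCB1.2) to -0.65 (LHCB1.3), and LHCA4, of photosystem I, had -1.21. The largest standard errors of LHCB1.1, LHCB1.3, LHCB4.1 and LHCB5 exceeded 3, so the deposited values leave the error of these genes nearly unbounded. PORB, a chlorophyll synthesis enzyme named after its values were seen, fell to -1.44. Growth genes of the SAUR family had 3 of 15 listed members at least 2-fold lower, SAUR20, SAUR24 and SAUR68 with -1.26, -1.38 and -1.43. Under the largest-error test with Benjamini-Hochberg adjustment 0 of these passed, and 0 at an unadjusted p of 0.05. In b'γ, SAUR20, SAUR24 and SAUR68 had -3.30, -3.05 and -2.70. The SAUR median was -0.75 in b'γζ, against -2.75, -0.62 and -0.73 in the other lines.

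**Figure D4:**
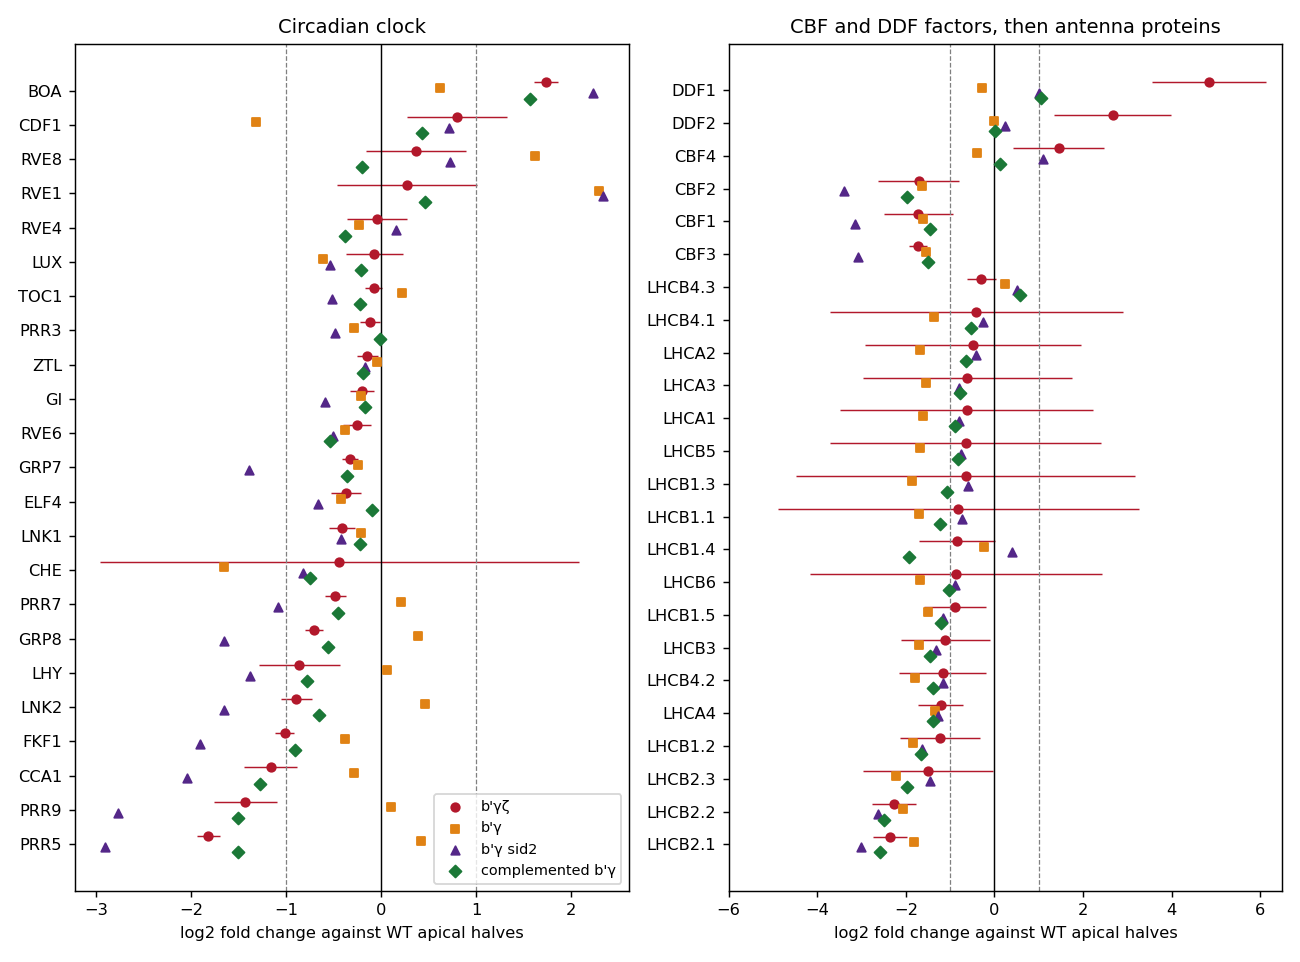
Log2 fold changes against WT (x axis) of the 23 listed clock genes (left) and of the CBF and DDF genes followed by the antenna genes (right) in the 4 mutant lines, with the largest standard error as a bar on the b'γζ points. PRR5 lies at -1.82 in b'γζ, 0.42 in b'γ and -2.90 in b'γ sid2; DDF1 lies at 4.84 in b'γζ and CBF3 at -1.73.

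All 3 listed mesophyll marker genes, RBCS1A, RCA and CA1, lay between -0.05 and 0.13 in b'γζ. The 21 listed markers of mesophyll, epidermis and trichome, guard cells, phloem, xylem, myrosin cells and dividing cells lay between -0.65 and 0.50, with a median of -0.04. In leaf parts fewer cells of a type and less RNA per cell cannot be told apart. The deposited table holds changes and not levels, so presence of a marker was not read from it.

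The known elements shown above were counted in the window from 250 bases before to 50 bases after the gene start of listed protein-coding genes. CGCGT, on either strand, was in 20.5% of 803 windows of genes at least 2-fold higher in b'γζ, in 6.78% of 487 windows of lower genes and in 9.71% of all 17459 listed windows. The evening element AAATATCT was in 5.35% of higher and 13.3% of lower genes' windows, against 6.36% of all listed windows. The heat shock element GAANNTTC was in 146 of 803 windows of higher genes and in 8.62% of lower genes' windows, against 11.7% of all. The G-box CACGTG, which is its own reverse complement, was in 9.84% of higher and 9.45% of lower genes' windows, against 9.08% of all. Elements not shown above were counted too. TTGACC (W-box) was in 21.2% of higher and 9.03% of lower genes' windows, against 14.5% of all. In the 202 windows of genes that rose it was in only 12.4%, below the share of all listed windows. CGCGT and GAANNTTC were in 19.8% and 16.8% of those 202 windows. The evening element was in 28.6% of the 112 windows of genes that fell. GATAAG (I-box) was in 15.2% and 22%, against 15.1%. CCGAC had 13.2% and 17.9%, against 16.1%, and GCCGCC had 3.74% and 1.03%, against 2.57%. Among the lists, 5 of 13 JAZ windows and 11 of 23 clock windows held a G-box. In the other jasmonate lists read, 2 of 12 synthesis, 1 of 12 MYC2 branch and 0 of 10 inactivation windows held a G-box. An evening element was in 9 of 23 clock windows, and GAANNTTC in 7 of 17 heat shock windows. Lists held other elements too: GATAAG was in 6 of 13 JAZ windows. The evening element was also in 4 of 17 heat shock and 3 of 12 synthesis windows. In JAZ7 the G-box began 34 bases before the gene start, and in PRR5 the evening element began 187 bases before it. Over all 27443 RefSeq protein-coding genes the shares were 8.7% for CGCGT, 5.65% for the evening element, 11.6% for GAANNTTC and 7.68% for the G-box. These are matches of letters, and binding was not measured.

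A reading added after the values were seen asked which genes differed between b'γζ and all 3 other mutant lines, by 2-fold and with the largest-error test passed in each difference. It gave 3 genes that were higher and 4 that were lower. The lower ones were B'ζ itself, PCC1, AT3G22235 and AGO7. PCC1 (AT3G22231), a membrane protein gene under pathogen and clock control, had -3.17 in b'γζ, -0.11 in complemented plants, 0.46 in b'γ sid2 and 0.41 in b'γ (largest standard error 0.36). Its neighbour AT3G22235 had -3.39 in b'γζ, against 0.73, 0.50 and -0.14 (largest standard error 0.41). AGO7, an argonaute of small RNA silencing, had -0.50 in b'γζ, against 0.54, 0.63 and 0.57, and its difference from WT did not pass. The higher ones were WRR4, a white rust resistance gene, with 1.69 in b'γζ against 0.49, 0.64 and 0.50 in the other lines, AT5G28335 with 4.35 against 0.00, -0.36 and -0.55, and the transposable element gene AT3G33076 with 4.25 against 0.55, -0.06 and 0.23.

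PCC1 and AT3G22235 lie on the same chromosome as B'ζ, 224.3 and 232.8 kb from it and 29 and 31 listed genes away. Between and beside them, AT3G22232, AT3G22237 and AT3G22240 had 1.07, 1.35 and 0.63 in b'γζ, and none of these passed the test. JAZ13, which had 3.69 in b'γζ and 3.12 in the complemented line, lies 257.2 kb from B'ζ. Of the 10 listed genes on each side of B'ζ, 2 were at least 2-fold higher, DMP1 with 2.82 and UGT71B6 with 1.1, and 0 were lower. Of the 10 on each side of B'γ, 4 were higher and 1 lower, and HPL1 rose to 1.33 while UGT84A3 fell to -1.03. Whether the low values near B'ζ come with the b'ζ mutation's chromosome segment was not tested.

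**Figure D5:**
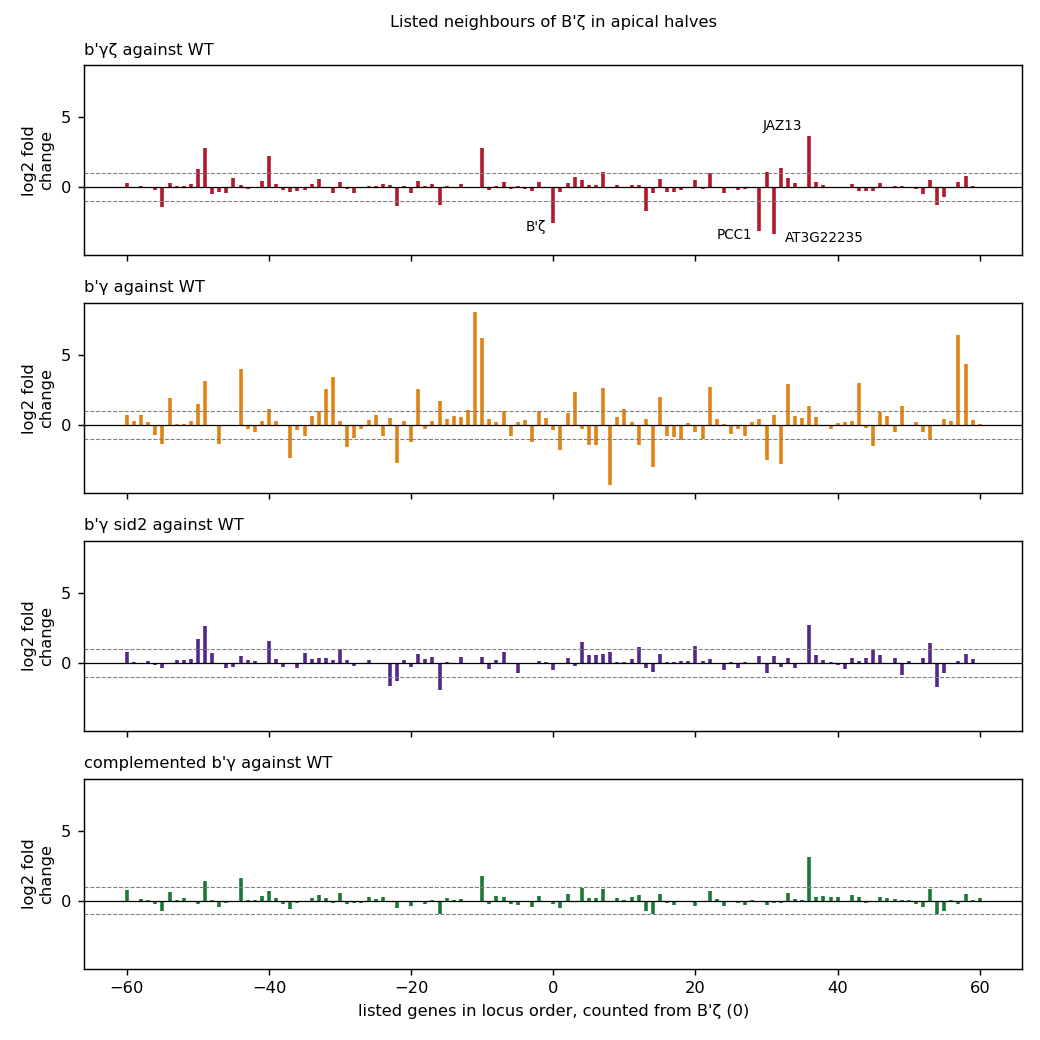
Log2 fold changes against WT (y axis) of the 60 listed genes on each side of B'ζ in locus order (x axis, counted in listed genes from B'ζ) in b'γζ, b'γ, b'γ sid2 and the complemented line. In b'γζ the lowest bars are B'ζ at -2.59, PCC1 at -3.17 and AT3G22235 at -3.39, and in the other lines these 3 genes lie between -0.51 and 0.73.

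The lowest values of all did not belong to b'γζ alone. MRD1 (AT1G53480) fell to -7.28 in b'γζ (largest standard error 0.30) and had -6.35 in the complemented line, against -0.43 in b'γ and -0.16 in b'γ sid2. HEI10 (AT1G53490), a meiotic crossover gene, fell to -4.36 (largest standard error 0.16) and had -4.09 in the complemented line, against -0.10 and -0.05. The annotated loci overlap by 1446 bases on opposite strands, and since strand use in counting was not stated, their reads cannot be told apart. AT5G59732, a non-coding RNA gene, had the same value, -7.45, in b'γζ and the complemented line, with a largest standard error of 6.56. WNK9, a kinase gene, fell to -2.76 in b'γζ, against -2.99, -2.99 and -1.66. AT4G33467 had -3.45, AT1G06002, an antisense locus, had -3.22 and AT5G62730 had -2.81 in b'γζ.

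The highest value of all belonged to a transposable element gene. AT5G35935 rose to 8.78 in b'γζ, against 1.59 in b'γ, 8.88 in complemented plants and 8.72 in b'γ sid2. AT3G60170 rose to 5.01, against 7.47, 3.96 and 3.19. Of 237 listed genes described as transposon-related, 17 (7.17%) were at least 2-fold higher and 23 (9.7%) lower, against 4.69% and 2.92% of all listed genes. Among the 237, 5 rose and 4 fell, and the median was -0.02. AT1G49920 rose to 3.40, against 0.65, 4.14 and -0.51, and AT3G21040 rose to 2.80, against 3.18, 2.61 and 1.4. AT4G00250, a DNA-binding protein gene, rose to 3.95, against 3.54 in b'γ, 0.24 in complemented plants and 3.53 in b'γ sid2.

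On chromosome 5, between AT5G03406 and AT5G05250, 164 listed genes in a row formed a block of higher values. It was bounded by its own values, so these are a description. Its median was 0.999 in b'γζ, 0.01 in complemented plants, 1.02 in b'γ sid2 and 0.96 in b'γ. The stretch held 81 of the 855 genes at least 2-fold higher and 68 of the 214 that rose. FLC, the flowering repressor on the same chromosome but outside the stretch, was named after its values were seen: it rose to 2.08 in b'γζ (largest standard error 0.18), with 1.75 in b'γ, -0.49 in complemented plants and 2.22 in b'γ sid2. SPL13A, a factor of the change to the adult phase, rose to 2.24, against 1.18, 1.77 and 1.63.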

How the data were processed

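Libraries of polyA RNA were made with a stranded kit, per the labels' protocols. Per the submitters' processing notes, bcl2fastq and DESeq were used with the build TAIR10; versions and the counting of reads were not given in the sources used here. The deposited file holds, for 18231 genes, the authors' 4 log2 fold changes of apical parts against WT and 6 p-value columns over all lines for genotype, tissue and interaction. The header gives no log base; base 2 was read from the values, since 3761 pairs of genes differ by 0.2, the step of 1 doubling in 1 of 5 pools, against 2816 at 0.19 and 2821 at 0.21. Depth per library is unknown, and 25801 tested genes follow from corrected p, rank and p.

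F values with 4 and 40 degrees of freedom were recovered from the p-values, line means were taken to lie within 20 log2 units, and the largest residual variance gave a normal-theory contrast, adjusted over 25801 genes (Python 3.11.15, scipy 1.17.1; tested on simulated data). Pools of apical and basal parts came from the same leaves, which this model treats as independent. Without values of single pools no exact test, SD or p within b'γζ and WT alone could be computed, so single p-values are not printed. Members, gene lists and named genes (the extremes, and the 4 largest of each list with 3 changed members) were chosen with earlier results of these data known. IDs matched RefSeq TAIR10.1 for 18153 genes, which also gave the sequences. Alternatives were a corrected p under 0.01, both centrings, a 4-fold limit, the equal-parts variance and leaving out the chromosome 5 stretch.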

Additional observations from a re-analysis of the deposited data

How the results depend on the processing

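The 855 higher and 533 lower genes became 161 and 39 at a 4-fold limit, 214 and 118 with the largest-error test added, and 537 and 295 with the equal-parts variance, which assumes line differences of the same size in basal and apical parts and was added for these 2 counts after seeing the data. In place of the largest error it gave 537 and 295 against 214 and 118, and 2994 in place of 826 genes of any size. Centred on the reference genes, 77 genes fell in place of 118. The fewer or more calls follow from the stricter limit, the size of the variance or the shift by -0.10. Counts of higher and lower genes under a corrected p of 0.01, both centrings for the 2-fold limit and the missing chromosome 5 stretch stayed within 1.5 times, and B'ζ and B'γ kept their direction and call. For 400 named genes, each read under both centrings, 3 of these readings lost and 6 gained a call, and 0 reversed. Of 136 list counts under the centrings, 134 stayed within 1.5 times. No paired analysis was possible because the deposited table holds no values of single pools, and for the same reason no replicate could be left out. Depth could not be weighed, since no counts were used here.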

Other observations

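Groups that the report does not describe stayed mostly under 2-fold in b'γζ. Of 16 listed abscisic acid genes 1 was at least 2-fold higher, CYP707A3, which breaks the hormone down, with 1.07 in b'γζ against -0.81 in b'γ. Of 12 ethylene genes 2 were higher, ACS11 with 1.80 and ACS7 with 1.06. Of 17 indole glucosinolate genes 3 were higher, MYB34, SOT16 and CYP79B3 with 1.3, 1.16 and 1.01. Aliphatic glucosinolate genes lay between -0.78 and 0.73, flavonoid genes between -0.29 and 0.78, and type-A response regulators of cytokinin signalling between -0.61 and 0.44. In the oxidative and mitochondrial stress group NDA1 fell to -1.54 and OM66 had 1.28. Of 34 glutathione transferase genes 4 were higher and 1 lower, and GSTF8 and GSTU5 rose to 1.25 and 1.15.

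The corrected interaction p of genotype and leaf part was under 0.05 for 26.9% of the genes at least 2-fold higher in b'γζ and 35.5% of the lower ones, against 42.4% of all listed genes. That p-value covers all lines together and gives no value for b'γζ alone.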
